A study of Bos taurus with 8 samples.

Results

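The DEAD and DEAH box helicases were followed through bovine eight-cell embryos as the rows whose gene symbol starts with DDX or DHX and a digit. These were 50 of 21258 rows, 35 with DDX symbols and 15 with DHX symbols. Each library came from a pool of 8 Holstein embryos, and its values were deposited as FPKM (fragments scaled for transcript length and for the number mapped in the library). KDM4E-SCNT embryos, made by somatic cell nuclear transfer with overexpression of the histone lysine demethylase KDM4E, gave 2 libraries. IVF embryos, made by in vitro fertilisation, gave 3 libraries, and SCNT embryos, made by nuclear transfer with no KDM4E overexpression, gave 3 libraries. Both KDM4E-SCNT and SCNT embryos carried a transferred somatic nucleus in oocyte cytoplasm, and the study set SCNT as the control for each of the other groups. The labels give neither the means of overexpressing KDM4E nor the donor cells, nor do they say whether pools came from separate cultures or days, so p-values measure only the spread between these pools, which may be technical.

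DEAD and DEAH box proteins use ATP to open short RNA duplexes or to strip proteins from RNA. The DDX members mostly clamp and locally separate strands, whereas many DHX members travel along a strand, and some of these are switched on by G-patch partner proteins. Together they serve nearly every step in the life of an RNA: splicing, export, translation, ribosome assembly, storage and decay, and the detection of foreign RNA. In oocytes and early embryos the family is known for its germ granule members, which hold or process maternal RNA, and in cattle the eight-cell stage is when the embryonic genome becomes broadly active.

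No row carried the symbol KDM4E, and the row taken for it (LOC524768, chromosome 15, positions 15664825 to 15668339, identity uncertain) had 102 and 206 FPKM in KDM4E-SCNT libraries, 109, 88.3 and 109 FPKM in IVF libraries, and 25.4, 30.0 and 33.9 FPKM in SCNT libraries. Its KDM4E-SCNT and IVF levels overlapped, and both lay above SCNT (KDM4E-SCNT minus SCNT, log2 difference 2.26 ± 0.34 SE, limma adjusted p = 0.00114). All 11 oocyte and early embryo markers were at 1 FPKM or more in every library, and they summed to 21599 to 25614 FPKM in KDM4E-SCNT, 28513 to 35234 FPKM in IVF and 4843 to 10018 FPKM in SCNT. Of 12 fibroblast markers, 3 to 11 reached 1 FPKM in a library. They summed to 85.1 to 374 FPKM in KDM4E-SCNT, 24.2 to 48.1 FPKM in IVF and 101 to 171 FPKM in SCNT. Of 10 tested, 4 were lower in IVF than in SCNT, 1 was higher and 5 were not called. Over all rows 23.6% were called lower and 34.9% higher. SPARC had 0.52, 0.59 and 0.94 FPKM in IVF and 50.6, 29.5 and 23.6 FPKM in SCNT. THY1 was listed at 0 in every SCNT library and in IVF replicates 1 and 2, and it reached at most 1.24 FPKM elsewhere. The 8 cumulus and granulosa rows, 3 or 4 of them at 1 FPKM or more, summed to 45.4 to 93.7 FPKM in KDM4E-SCNT, 96.6 to 159 FPKM in IVF and 16.1 to 24.5 FPKM in SCNT. Most of each sum was HAS2 and STAR, and the 3 tested rows did not agree. HAS2 (log2 difference 2.88 ± 0.34 SE) and STAR (2.82 ± 0.42) were higher in IVF than in SCNT. TNFAIP6 was lower (-1.06 ± 0.43, limma adjusted p = 0.0492). The defining marker FSHR was listed at 0 in all libraries but IVF replicate 2. Mitochondrially encoded genes took 11.0% and 11.5% of all FPKM in KDM4E-SCNT, 6.08% to 7.10% in IVF and 7.54% to 10.6% in SCNT. The part of these differences in the helicase results was not tested. In pools of whole embryos, fewer cells of a type and less RNA per cell cannot be told apart.

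The family as a whole took a smaller share of the transcriptome in IVF than in SCNT libraries. Its 50 rows summed to 1804 and 1438 FPKM in KDM4E-SCNT, 1306, 1251 and 1364 FPKM in IVF, and 2265, 2044 and 2436 FPKM in SCNT. The 3 groups did not overlap, with KDM4E-SCNT in the middle. As a share of each library's total FPKM the sums were 0.224% and 0.191% in KDM4E-SCNT, 0.176%, 0.178% and 0.186% in IVF, and 0.268%, 0.242% and 0.300% in SCNT. A few members made up much of it: DDX5, DDX39A and DDX3X together gave 33.4% to 50.8% of the family sum in a library.

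DDX5 (p68, a cofactor of transcription and splicing) ranked first in all 3 groups. It had 436 and 306 FPKM in KDM4E-SCNT, 437, 338 and 319 FPKM in IVF, and 427, 478 and 436 FPKM in SCNT, so all groups overlapped and no comparison was called. DDX39A ranked second in every group, and its SCNT values overlapped those of DDX5. In KDM4E-SCNT and SCNT the order went on with DDX3X, DDX21 and DDX18. In IVF it went on with DDX24 (65.6 to 119 FPKM), DDX25 (68.7 to 89.6 FPKM) and DDX18 (39.0 to 61.5 FPKM), and there DDX39A, DDX24 and DDX25 could not be ordered beyond the spread between libraries. At the low end, DDX11 (a DNA helicase of sister chromatid cohesion), DDX51 (ribosome biogenesis) and DHX34 (nonsense-mediated decay) stayed under 1 FPKM in every library and were not tested. The other 47 members passed the filter of 1 FPKM in at least 2 libraries.

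**Figure D1:**
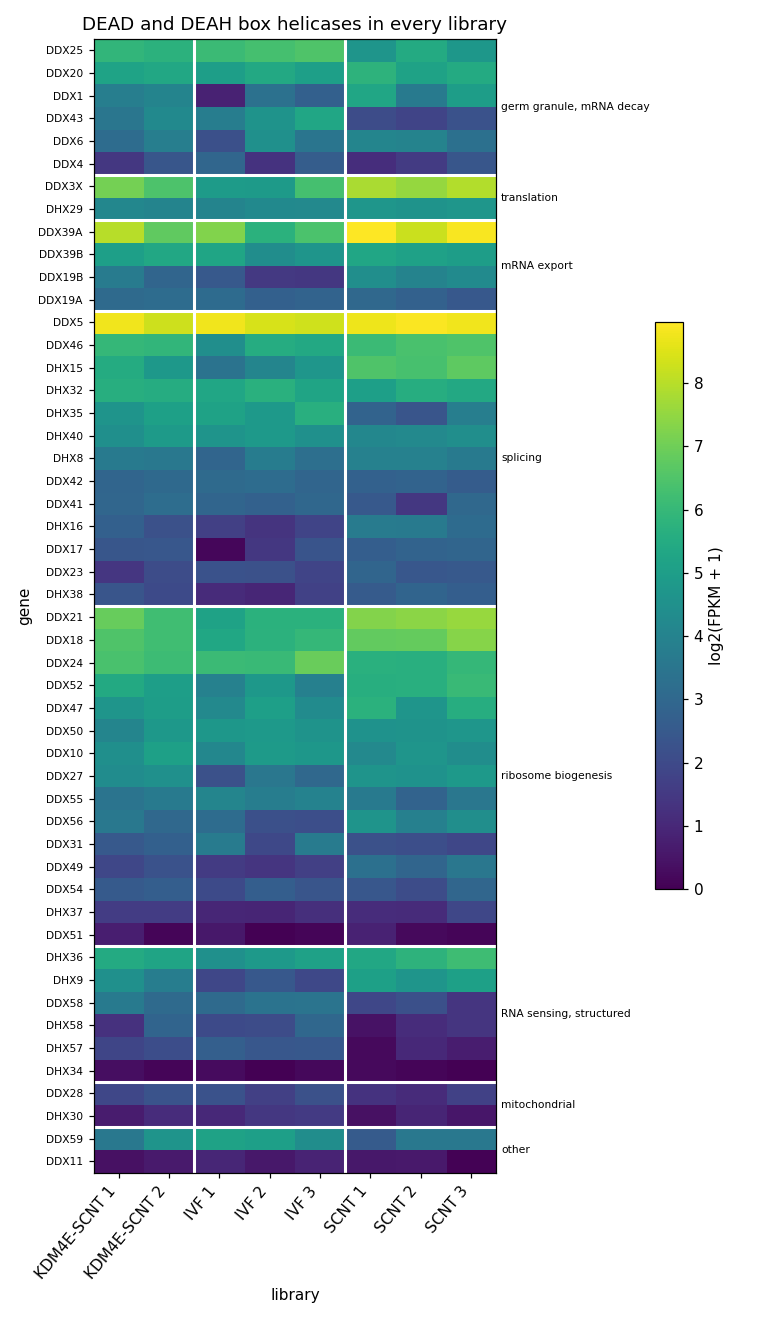
Heat map of log2(FPKM + 1) for the 50 helicases (rows, grouped by role) in the 8 libraries (columns, KDM4E-SCNT, IVF, then SCNT). DDX5 is bright in every library, while DDX11, DDX51 and DHX34 stay dark throughout.

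Between IVF and SCNT embryos, 24 of the 47 tested helicases differed, and most of these were lower in IVF. The 7 members higher in IVF included the germline helicase DDX43 and the spliceosome-associated DHX35. The 17 lower members included the RNA-DNA hybrid helicase DHX9 and the splicing helicase DHX15. In limma, with Benjamini-Hochberg adjustment over all 14839 tested rows and a threshold of 0.05, 34.9% of all rows were called higher in IVF and 23.6% lower, against 14.9% and 36.2% of the tested helicases. The same shares of all rows stand behind each count by role below, and most roles hold few members. The family's median log2 difference was -0.34, and that of all tested rows was 0.39. All differences are on the log2(FPKM + 1) scale, on which folds of weakly expressed genes are understated. Median-ratio scaling moved the all-row median to 0.10 and gave 6 members higher and 24 lower in IVF, against 28.0% and 29.2% of all rows.

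**Figure D2:**
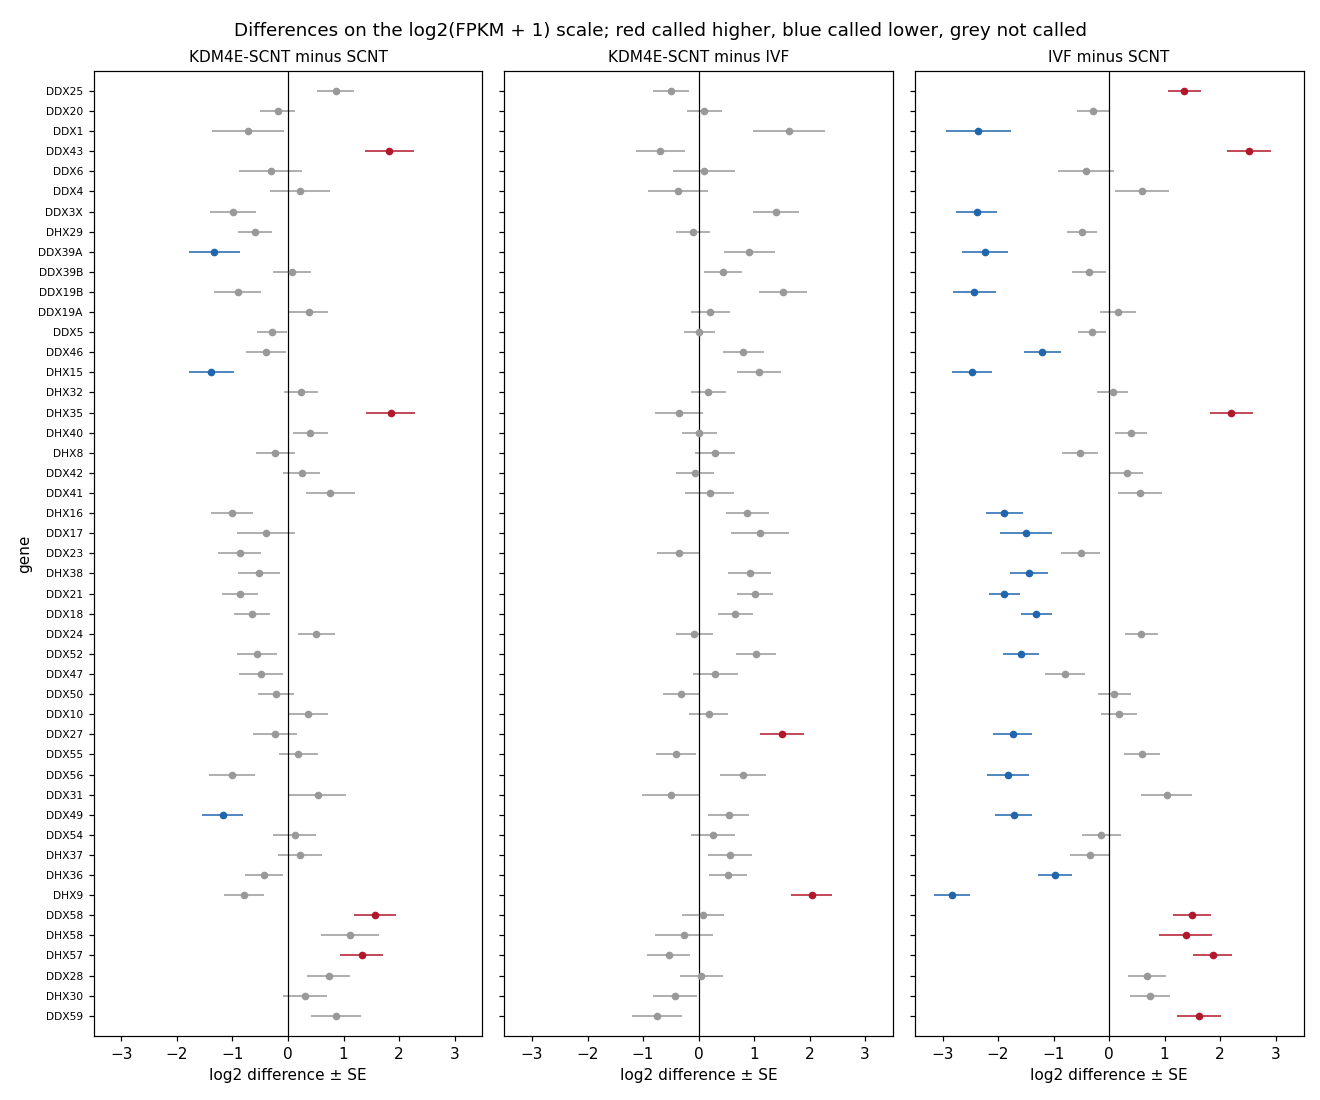
Log2 difference with its SE for the 47 tested helicases in KDM4E-SCNT minus SCNT, KDM4E-SCNT minus IVF and IVF minus SCNT, on the log2(FPKM + 1) scale, with red called higher, blue called lower and grey not called. In IVF minus SCNT the 17 lower members reach -2.83 and the 7 higher members reach 2.51.

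Of the 6 helicases of RNA storage, decay and germ granules, 2 were higher in IVF than in SCNT, 1 was lower and 3 were not called. Shares over all rows were 34.9% higher and 23.6% lower. DDX43 (HAGE, a helicase known from testis and tumours) had 10.4 and 18.2 FPKM in KDM4E-SCNT, 12.8, 23.5 and 38.7 FPKM in IVF, and 3.19, 2.60 and 3.79 FPKM in SCNT. Every KDM4E-SCNT and IVF library lay above every SCNT library, and IVF was 5.71-fold above SCNT (log2 difference 2.51 ± 0.40 SE, adjusted p = 0.000193). DDX25 (GRTH, which in rodents carries and stores mRNA in male germ cells) had 57.9 and 52.7 FPKM in KDM4E-SCNT, 68.7, 78.8 and 89.6 FPKM in IVF, and 24.5, 43.2 and 25.6 FPKM in SCNT. The 3 groups of DDX25 did not overlap, with IVF highest and 1.36 ± 0.29 above SCNT on the log2 scale (adjusted p = 0.00173). The germ cell marker DDX4 (VASA, a germ granule scaffold of the piRNA pathway) was low in all groups, at 1.71 and 4.32 FPKM in KDM4E-SCNT, 6.74, 1.47 and 5.17 FPKM in IVF, and 1.25, 1.97 and 4.21 FPKM in SCNT. Its groups overlapped in every comparison.

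DDX1 (a member of the tRNA ligase complex also found in RNA granules) had 13.3 and 15.5 FPKM in KDM4E-SCNT, 0.80, 9.03 and 5.72 FPKM in IVF, and 38.8, 11.7 and 31.1 FPKM in SCNT. All IVF libraries lay below all SCNT libraries, although SCNT replicate 2 was close to them (log2 difference -2.35 ± 0.58, adjusted p = 0.00384). DDX6 (p54/RCK, a core protein of P-bodies and of maternal mRNA repression) had 7.89 and 13.1 FPKM in KDM4E-SCNT, 3.56, 21.7 and 10.1 FPKM in IVF, and 16.0, 15.2 and 8.80 FPKM in SCNT. DDX20 (Gemin3, of the SMN complex that builds spliceosomal RNPs) had 36.0 and 40.0 FPKM in KDM4E-SCNT, 31.8, 41.9 and 32.7 FPKM in IVF, and 54.5, 34.5 and 43.3 FPKM in SCNT. The groups of DDX6 and of DDX20 overlapped throughout, and neither was called.

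Of the translation helicases, DDX3X was lower in IVF and DHX29 was not called. DDX3X (which helps ribosomes through structured leader sequences, on chromosome X at 107678777 to 107691829) had 134 and 86.8 FPKM in KDM4E-SCNT, 29.3, 28.8 and 78.2 FPKM in IVF, and 227, 186 and 240 FPKM in SCNT. The 3 groups stood apart, with KDM4E-SCNT in the middle, and IVF was 5.23-fold below SCNT (log2 difference -2.39 ± 0.37, adjusted p = 0.000163). DHX29 (which binds the small ribosomal subunit during scanning) had 16.7 and 15.3 FPKM in KDM4E-SCNT, 15.6, 18.2 and 17.7 FPKM in IVF, and 25.0, 23.5 and 25.2 FPKM in SCNT. All 5 libraries of the first 2 groups lay below SCNT for DHX29 (IVF minus SCNT -0.49 ± 0.27), but neither difference was called (adjusted p = 0.15 for KDM4E-SCNT and 0.133 for IVF).

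Of the 4 mRNA export helicases, 2 were lower in IVF and 2 were not called. DDX39A (URH49, an exporter of selected mRNAs) had 252 and 107 FPKM in KDM4E-SCNT, 152, 51.5 and 84.0 FPKM in IVF, and 497, 304 and 471 FPKM in SCNT. KDM4E-SCNT overlapped IVF, and both lay below SCNT (IVF minus SCNT -2.24 ± 0.41, adjusted p = 0.000547). Its close paralogue DDX39B (UAP56, of the TREX export complex) had 32.7 and 39.9 FPKM in KDM4E-SCNT, 37.2, 20.1 and 24.6 FPKM in IVF, and 38.9, 33.7 and 30.8 FPKM in SCNT, with all groups overlapping. DDX19B (which releases mRNA at the nuclear pore) had 12.4 and 6.53 FPKM in KDM4E-SCNT, 4.63, 1.78 and 1.73 FPKM in IVF, and 20.4, 15.1 and 18.3 FPKM in SCNT. The 3 groups of DDX19B did not overlap (IVF minus SCNT -2.43 ± 0.38, adjusted p = 0.000169), while its paralogue DDX19A ranged from 4.49 to 7.97 FPKM over all libraries and was not called.

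Of the 13 helicases grouped with splicing, 1 was higher in IVF, 5 were lower and 7 were not called. Among all rows 34.9% were called higher and 23.6% lower. DHX35 (found in human spliceosomes) had 23.8 and 33.1 FPKM in KDM4E-SCNT, 34.6, 27.7 and 49.4 FPKM in IVF, and 6.17, 4.19 and 13.2 FPKM in SCNT. KDM4E-SCNT and IVF overlapped well above SCNT (IVF minus SCNT 2.20 ± 0.39, adjusted p = 0.000419). DHX15 (which takes spent spliceosomes apart and also acts in ribosome assembly) had 45.0 and 26.2 FPKM in KDM4E-SCNT, 9.61, 15.8 and 25.0 FPKM in IVF, and 88.4, 80.0 and 107 FPKM in SCNT. The 3 groups stood apart, IVF being 5.52-fold below SCNT (log2 difference -2.46 ± 0.36, adjusted p = 9.68e-05). KDM4E-SCNT was not called against IVF (limma adjusted p = 0.147). DHX16 (the homologue of yeast Prp2, which readies the spliceosome for the first catalytic step) had 5.78 and 3.71 FPKM in KDM4E-SCNT, 2.21, 1.55 and 2.54 FPKM in IVF, and 12.2, 11.7 and 7.73 FPKM in SCNT. Its groups also stood apart (IVF minus SCNT -1.89 ± 0.34, adjusted p = 0.000466). KDM4E-SCNT was called against neither SCNT (limma adjusted p = 0.0579) nor IVF (0.22).

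The other splicing members that fell in IVF were DDX46 (Prp5, at the branch site), DHX38 (Prp16, at the second step) and DDX17 (p72, the paralogue of DDX5). DDX46 had 20.4 to 46.2 FPKM in IVF and 67.7 to 90.0 FPKM in SCNT, and DHX38 had 0.94 to 2.34 FPKM in IVF and 4.95 to 6.45 FPKM in SCNT. DDX17 had 0.12, 1.72 and 3.96 FPKM in IVF and 5.33, 6.19 and 6.56 FPKM in SCNT, and its call (adjusted p = 0.0145) was lost without IVF replicate 1 (adjusted p = 0.0602, in a range of 0.00312 to 0.0602 over 20 alternatives). Those not called were DDX5, DHX8 (Prp22, which releases the spliced mRNA), DDX23 (of the U5 particle), DDX41, DDX42, DHX32 and DHX40. DHX32, whose role is less settled, ranged from 32.0 to 50.1 FPKM over all libraries; its span overlaps that of BCCIP, and the sources used here do not state strand, so reads of the pair cannot be told apart.

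Of the 15 helicases of ribosome biogenesis, 14 were tested, and of these 6 were lower in IVF and 8 were not called. Beside this stand 34.9% of all rows called higher and 23.6% called lower. DDX21 (a nucleolar helicase that links RNA polymerase I transcription to rRNA processing) had 118 and 73.2 FPKM in KDM4E-SCNT, 35.2, 51.6 and 51.2 FPKM in IVF, and 155, 169 and 189 FPKM in SCNT. Its 3 groups did not overlap (IVF minus SCNT -1.89 ± 0.29, adjusted p = 0.000134). DDX27 (which acts in large-subunit rRNA maturation) had 19.7 and 21.5 FPKM in KDM4E-SCNT, 3.68, 10.8 and 7.07 FPKM in IVF, and 24.1, 22.4 and 27.1 FPKM in SCNT. KDM4E-SCNT lay close below SCNT and far above IVF (IVF minus SCNT -1.74 ± 0.35, adjusted p = 0.0011).

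DDX49 (a nucleolar helicase of pre-rRNA processing) had 2.78 and 3.82 FPKM in KDM4E-SCNT, 1.95, 1.61 and 2.24 FPKM in IVF, and 8.97, 6.62 and 10.7 FPKM in SCNT (IVF minus SCNT -1.72 ± 0.33, adjusted p = 0.000728). DDX52 (the homologue of yeast Rok1, of small-subunit assembly) had 42.2 and 31.7 FPKM in KDM4E-SCNT, 14.2, 26.5 and 13.9 FPKM in IVF, and 48.6, 49.4 and 66.6 FPKM in SCNT (IVF minus SCNT -1.59 ± 0.32, adjusted p = 0.00108). For both genes the 3 groups stood apart, with IVF lowest and SCNT highest. KDM4E-SCNT was not called against IVF for DDX49 (limma adjusted p = 0.45) or DDX52 (0.123), nor against SCNT for DDX52 (0.247). The other lower members were DDX18 (39.0 to 61.5 FPKM in IVF, 112 to 161 FPKM in SCNT) and DDX56 (3.41 to 7.95 FPKM in IVF, 14.0 to 23.6 FPKM in SCNT), both of large-subunit assembly. DDX10, DDX24, DDX31, DDX47, DDX50, DDX54, DDX55 and DHX37 were not called, at log2 differences from -0.79 (DDX47) to 1.03 (DDX31). DDX31 passed without IVF replicate 2 (adjusted p = 0.00183, range 0.00183 to 0.241), and DDX47 without IVF replicate 2 (0.0279) or SCNT replicate 2 (0.0195; range 0.012 to 0.233).

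All 5 tested members grouped under RNA sensing and structured nucleic acids were called, 3 higher and 2 lower in IVF. So small a set is to be read beside the 34.9% of all rows called higher and the 23.6% called lower. DDX58 (RIG-I, the cytoplasmic sensor of viral RNA) had 11.8 and 7.55 FPKM in KDM4E-SCNT, 7.48, 9.53 and 9.95 FPKM in IVF, and 2.71, 3.54 and 1.63 FPKM in SCNT. DHX57, a little-studied DHX protein, had 2.62 and 3.38 FPKM in KDM4E-SCNT, 5.59, 4.39 and 4.47 FPKM in IVF, and 0.18, 1.06 and 0.65 FPKM in SCNT. For both genes every KDM4E-SCNT and IVF library lay above every SCNT library (IVF minus SCNT 1.49 ± 0.34, adjusted p = 0.00256, for DDX58, and 1.87 ± 0.35, adjusted p = 0.000603, for DHX57). DHX58 (LGP2, a regulator of RIG-I-like sensing) had 3.00, 3.26 and 6.88 FPKM in IVF and 0.34, 1.20 and 1.61 FPKM in SCNT. The DHX58 call (adjusted p = 0.0236) was lost without IVF replicate 3 (0.106) or SCNT replicate 1 (0.1), in a range of 0.0111 to 0.106.

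DHX9 (RNA helicase A, which resolves RNA-DNA hybrids and double-stranded RNA) was also lower in IVF. It had 21.7 and 12.8 FPKM in KDM4E-SCNT, 2.78, 4.50 and 2.86 FPKM in IVF, and 32.8, 24.3 and 32.8 FPKM in SCNT. The 3 groups stood apart, IVF being 7.12-fold below SCNT (log2 difference -2.83 ± 0.33, adjusted p = 1.91e-05). DHX36 (RHAU, which unwinds G-quadruplexes) had 43.5 and 36.4 FPKM in KDM4E-SCNT, 21.7, 27.0 and 34.3 FPKM in IVF, and 40.4, 54.7 and 71.5 FPKM in SCNT. All IVF libraries lay below SCNT (log2 difference -0.97 ± 0.31, adjusted p = 0.0163), a call lost without IVF replicate 1 (0.0594) or SCNT replicate 3 (0.0857), in a range of 0.00213 to 0.0857.

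Neither mitochondrial helicase was called. DDX28 (of mitochondrial ribosome assembly) had 2.77 and 3.91 FPKM in KDM4E-SCNT, 3.75, 2.25 and 3.67 FPKM in IVF, and 1.46, 1.15 and 2.29 FPKM in SCNT. DHX30 (of mitochondrial RNA granules) had 0.62 and 1.21 FPKM in KDM4E-SCNT, 1.06, 1.74 and 1.90 FPKM in IVF, and 0.31, 0.89 and 0.44 FPKM in SCNT. DDX59 (linked in humans to a developmental syndrome of mouth, face and digits) was higher in IVF, with 11.0 and 24.2 FPKM in KDM4E-SCNT, 34.6, 32.5 and 19.8 FPKM in IVF, and 4.89, 11.1 and 11.1 FPKM in SCNT. All IVF libraries of DDX59 lay above SCNT, and KDM4E-SCNT spanned the gap (IVF minus SCNT 1.62 ± 0.40, adjusted p = 0.00402).

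**Figure D3:**
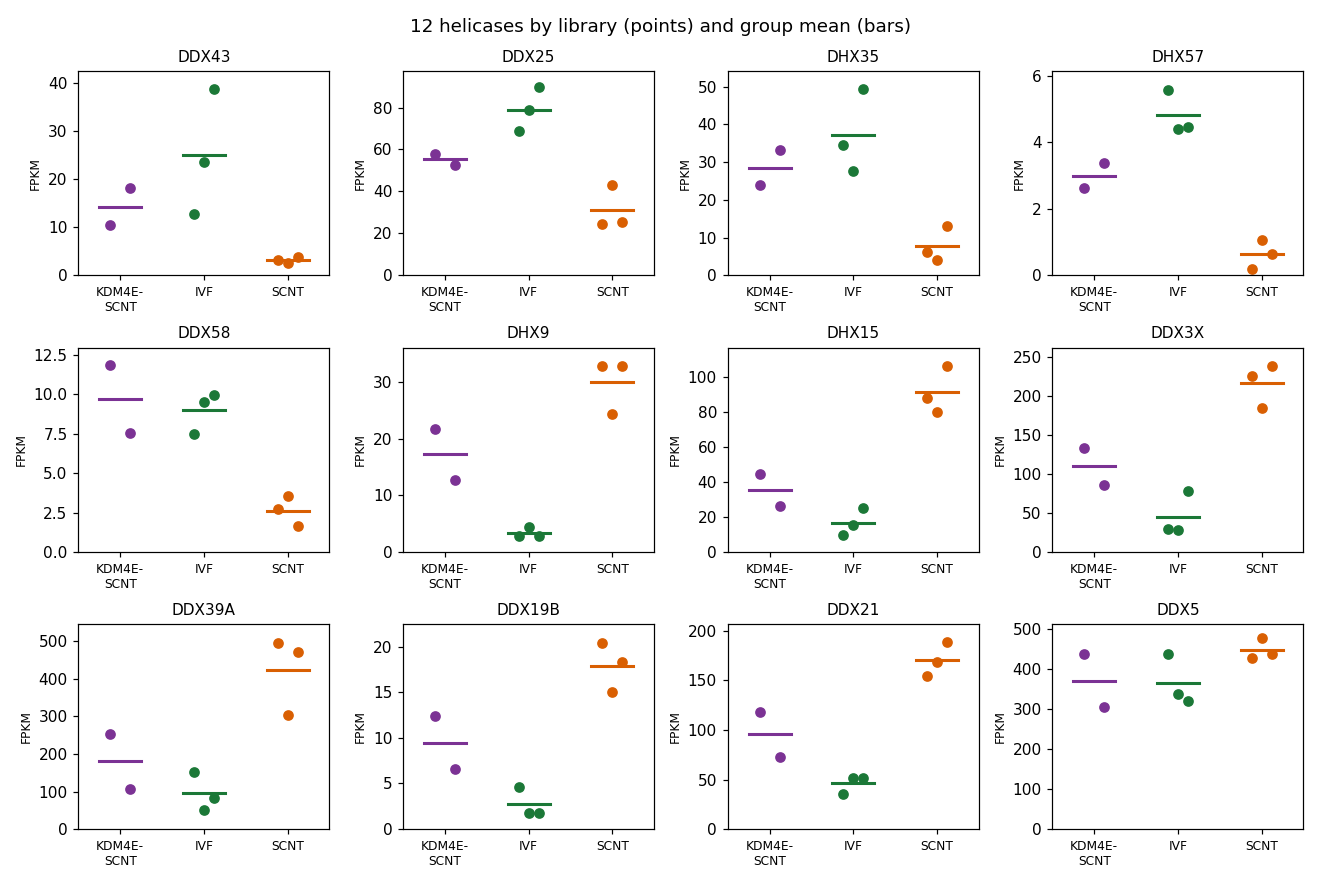
FPKM of 12 helicases in each library (points), with the group mean as a bar, for KDM4E-SCNT, IVF and SCNT. DDX43, DDX25, DHX35, DHX57 and DDX58 are lowest in SCNT, DHX9, DHX15, DDX3X, DDX39A, DDX19B and DDX21 are highest there, and the DDX5 groups overlap.

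With KDM4E overexpression, 7 of the 47 tested helicases differed from SCNT. DHX35, DDX43, DDX58 and DHX57 were higher in KDM4E-SCNT, and DHX15, DDX39A and DDX49 were lower. Over all rows, 21.6% were called higher and 11.0% lower. The family's median log2 difference was -0.21 (0.02 without KDM4E-SCNT replicate 1), and that of all tested rows was 0.32. Median-ratio scaling, which moved the all-row median to 0.02, gave 3 members higher and 12 lower, against 14.2% and 18.6% of all rows. The SCNT libraries served in both this comparison and that of IVF with SCNT.

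In KDM4E-SCNT libraries DHX35 exceeded its SCNT level 3.60-fold (log2 difference 1.85 ± 0.44, adjusted p = 0.0078) and DDX43 did so 3.55-fold (1.83 ± 0.45, adjusted p = 0.00929). DDX58 was higher by 1.57 ± 0.38 (adjusted p = 0.00929) and DHX57 by 1.33 ± 0.39 (adjusted p = 0.0211). In the other direction, DHX15 differed by -1.38 ± 0.40 (adjusted p = 0.0199), DDX39A by -1.32 ± 0.46 (adjusted p = 0.0425) and DDX49 by -1.17 ± 0.37 (adjusted p = 0.0285). For these 7 genes both KDM4E-SCNT libraries lay outside the SCNT range. Without KDM4E-SCNT replicate 2, which leaves 1 library assumed to vary like the other groups, 6 of the 7 calls were lost: DHX35 (adjusted p = 0.0852, range over 20 alternatives 0.00309 to 0.0852), DDX43 (0.111, range 0.0056 to 0.111), DHX57 (0.128, range over the 19 alternatives that tested it 0.0156 to 0.128), DHX15 (0.189, range 0.00581 to 0.189), DDX39A (0.385, range 0.0124 to 0.385) and DDX49 (0.0774, range 0.00701 to 0.115). Without KDM4E-SCNT replicate 1, DDX58 (0.0605, range 0.00638 to 0.0605) and DDX49 (0.115) were lost. Without SCNT replicate 1, DHX57 (0.0821), DDX39A (0.118) and DDX49 (0.0789) were lost, without SCNT replicate 3 DHX15 (0.0712), DHX57 (0.0513), DDX39A (0.118) and DDX49 (0.0996), and without IVF replicate 3 DDX39A (0.0611).

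Several members that differed between IVF and SCNT did not pass here, and their values were closest to the threshold for DDX21 (-0.87 ± 0.32, adjusted p = 0.0537), DHX16 (-1.01 ± 0.38, adjusted p = 0.0579), DDX25 (0.86 ± 0.33, adjusted p = 0.0623), DDX56 (-1.01 ± 0.42, adjusted p = 0.0776) and DDX3X (1.99-fold below SCNT, adjusted p = 0.0825). These failures depended on scaling. Under both median-ratio and upper-quartile scaling DDX21, DHX16, DDX56 and DDX3X passed (limma adjusted p = 0.0109 to 0.039), and DDX25 did not. DDX25 passed with 1 total per library (0.0427) or with mitochondrially encoded genes removed (0.0377). DDX21 passed without KDM4E-SCNT replicate 1 (0.0296), IVF replicate 1 (0.0488) or IVF replicate 2 (0.0497), in a range of 0.0109 to 0.352. DDX25 passed without SCNT replicate 2 (0.0251, range 0.0251 to 0.377), DDX3X without IVF replicate 3 (0.0393, range 0.0191 to 0.403) and DHX58 without KDM4E-SCNT replicate 1 (0.0267, range 0.0267 to 0.749).

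The KDM4E-SCNT libraries mostly sat between the other groups for the 24 helicases that differed between IVF and SCNT. Replicate 1 fell between the IVF and SCNT ranges for 19 of the 24, inside the SCNT range for 4 and above both for 1. Replicate 2 fell between for 16, inside the IVF range for 7 and inside the SCNT range for 1. Over all 8680 rows that differed between IVF and SCNT, 56.6% of replicate 1 values and 43.0% of replicate 2 values fell between, and 23.3% and 42.0% fell inside the IVF range.

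Against IVF, DHX9 and DDX27 were the only helicases called in KDM4E-SCNT, both higher. DHX9 was 4.11-fold higher (log2 difference 2.04 ± 0.37, adjusted p = 0.00462) and DDX27 was 2.83-fold higher (1.50 ± 0.40, adjusted p = 0.0395), and in each case both KDM4E-SCNT libraries lay above all IVF libraries. Over all rows 5.90% were called higher in KDM4E-SCNT and 0.620% lower, against 4.26% and 0% of the tested helicases. At an unadjusted p under 0.05 in limma, 11 members were higher and 0 lower. The share of all rows at that threshold was not counted, so the 11 have no background beside them. The family's median log2 difference was 0.20, and that of all rows was -0.03. Without KDM4E-SCNT replicate 1 neither call held (adjusted p = 0.09 for DHX9, range 0.00296 to 0.09, and 0.205 for DDX27, range 0.015 to 0.205), and DDX27 was also lost without each other library except IVF replicate 2 (adjusted p = 0.058 to 0.111).

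Members next below the threshold were DDX19B (1.52 ± 0.43, adjusted p = 0.0511), DDX3X (1.39 ± 0.42, adjusted p = 0.0699) and DDX21 (1.02 ± 0.32, adjusted p = 0.0841). All 3 had both KDM4E-SCNT libraries above every IVF library. DDX19B passed without KDM4E-SCNT replicate 2 (0.0399) or IVF replicate 1 (0.0248), in a range of 0.0248 to 0.478. DDX3X passed without IVF replicate 3 (0.0109, range 0.0109 to 0.501), DDX21 without KDM4E-SCNT replicate 2 (0.0411, range 0.0411 to 0.585) and DDX52 without IVF replicate 2 (0.0399, range 0.0399 to 0.597).

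Some paralogues of the family changed unequally between groups. DDX21 and DDX50 are nucleolar paralogues that lie side by side on chromosome 28 (25376359 to 25399768 and 25335074 to 25368153). The ratio of DDX21 to DDX50 was 7.47 and 2.80 in KDM4E-SCNT, 1.36, 1.89 and 2.21 in IVF, and 6.79, 7.24 and 7.47 in SCNT. DDX50 itself had 15.8 and 26.2 FPKM in KDM4E-SCNT, 26.0, 27.3 and 23.2 FPKM in IVF, and 22.8, 23.3 and 25.3 FPKM in SCNT, with all groups overlapping. The ratio of DDX39A to DDX39B was 7.73 and 2.69 in KDM4E-SCNT, 4.10, 2.56 and 3.41 in IVF, and 12.8, 9.03 and 15.3 in SCNT. The ratio of DDX19B to DDX19A, neighbours on chromosome 18 (1799804 to 1821405 and 1772699 to 1791283), was 1.65 and 0.819 in KDM4E-SCNT, 0.596, 0.310 and 0.275 in IVF, and 2.86, 2.55 and 4.08 in SCNT. IVF and SCNT ratios did not overlap for any of these 3 pairs. In each, the first gene was called between IVF and SCNT and the second was not, so the ratios add no separate test. The ratio of DDX5 to DDX17 was 102 and 69.6 in KDM4E-SCNT, 3638, 196 and 80.6 in IVF, and 80.0, 77.3 and 66.5 in SCNT. The ratios of 3638 and 196 rested on DDX17 levels of only 0.12 and 1.72 FPKM, and DDX5 itself was not called. The ratio of DHX9 to DHX36 was 0.128, 0.167 and 0.0835 in IVF and 0.813, 0.445 and 0.459 in SCNT. Paralogues of the 3 pairs are alike in sequence, DDX19A and DDX19B most of all, so reads could have been split between them and their separate levels are uncertain.

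**Figure D4:**
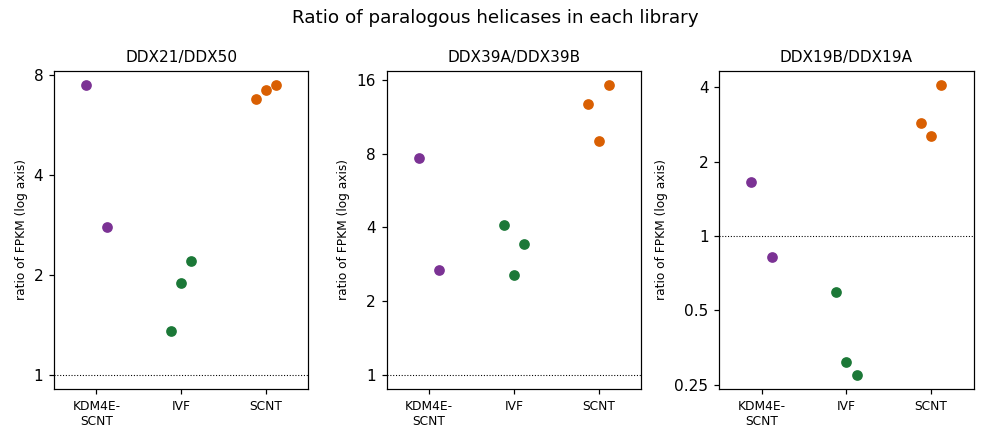
Ratio of FPKM between paralogous helicases in each library, on a log axis, for KDM4E-SCNT, IVF and SCNT. DDX19B is above DDX19A in all SCNT libraries and below it in all IVF libraries, and KDM4E-SCNT replicate 1 reaches the highest SCNT ratio for DDX21 over DDX50.

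Genes that work with these helicases were counted in the same fits. For this and each list below, 34.9% of all rows were called higher and 23.6% lower in IVF minus SCNT. Under median-ratio scaling these shares were 28.0% and 29.2%. In KDM4E-SCNT minus SCNT they were 21.6% and 11.0%, or 14.2% and 18.6% under median-ratio scaling. Against IVF, 5.90% of all rows were called higher in KDM4E-SCNT. Of 14 tested genes that act with DDX4 or in the piRNA pathway, 8 were higher in IVF than in SCNT and 6 were not called, with a median log2 difference of 1.70. MAEL, which is needed for transposon silencing in the mouse germline, had 104 and 226 FPKM in KDM4E-SCNT, 260, 209 and 232 FPKM in IVF, and 32.1, 18.4 and 27.4 FPKM in SCNT. IVF lay far above SCNT (3.15 ± 0.33, adjusted p = 9.3e-06), as did TDRD9 (2.35 ± 0.33) and ASZ1 (2.00 ± 0.30). KDM4E-SCNT was higher than SCNT for 7 of the 14. Median-ratio scaling gave 8 higher and 1 lower in IVF, and 5 higher in KDM4E-SCNT.

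Nucleolar proteins, the partners of the ribosome biogenesis helicases, showed the opposite: 15 of 21 tested were lower in IVF than in SCNT and 6 were not called, with a median of -1.83. NOP56, a core protein of box C/D small nucleolar RNPs, had 145 and 73.7 FPKM in KDM4E-SCNT, 39.9, 23.6 and 36.5 FPKM in IVF, and 722, 401 and 538 FPKM in SCNT. Its groups stood apart (IVF minus SCNT -4.01 ± 0.34, adjusted p = 2.3e-06), and its partners NOP58 (-3.26 ± 0.33) and FBL (-3.23 ± 0.35) were also lower. KDM4E-SCNT was lower than SCNT for 7 of the 21, or 13 under median-ratio scaling, and higher than IVF for 6.

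DDX6 partners went both ways in IVF, 6 higher and 3 lower of 14 tested, or 5 and 5 under median-ratio scaling. The oocyte repressors ZAR1 (3.04 ± 0.38) and PATL2 (2.90 ± 0.38) were higher, and the decapping cofactor EDC3 (-2.65 ± 0.33) was lower. KDM4E-SCNT was higher than SCNT for 4 of these and lower for 2. Of 13 cap-binding and scanning factors, 3 were higher and 8 lower in IVF, among them EIF1AX (-2.92 ± 0.25) and EIF4B (-2.17 ± 0.27), while the oocyte cap-binding protein EIF4E1B was higher (2.46 ± 0.35). In KDM4E-SCNT minus SCNT, 2 of the 13 were higher and 5 lower, or 1 and 5 under median-ratio scaling.

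Of 23 tested spliceosome proteins, 7 were higher and 8 lower in IVF than in SCNT, or 4 and 10 under median-ratio scaling. The all-row shares were 34.9% and 23.6%, or 28.0% and 29.2% under that scaling. CDC5L was higher (1.81 ± 0.28) and SF3B1 (-2.18 ± 0.32) and PRPF8 (-1.88 ± 0.34) were lower. KDM4E-SCNT was higher than SCNT for 5 and lower for 2, or 2 and 6 under median-ratio scaling. Of 19 tested G-patch proteins, the class that includes activators of DEAH helicases, 4 were higher and 10 lower in IVF, among them GPATCH11 (-2.15 ± 0.29), RBM10 (-2.47 ± 0.36) and NKRF (-2.57 ± 0.39). KDM4E-SCNT was higher than SCNT for 4 G-patch proteins and lower for 3, or 1 and 8 under median-ratio scaling.

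Export partners split into 4 higher and 3 lower of 14 in IVF, or 2 and 6 under median-ratio scaling, with THOC7 (2.31 ± 0.25) and THOC5 (1.34 ± 0.34) higher and SARNP (-0.98 ± 0.23) lower. In KDM4E-SCNT minus SCNT, 2 of the 14 were higher and 1 lower, or 1 and 2 under median-ratio scaling. Of 9 exon junction and associated genes, 2 were higher and 3 lower in IVF, namely RBM8A (-2.35 ± 0.26), UPF3B (-2.88 ± 0.35) and the DEAD box helicase EIF4A3 (-1.46 ± 0.32), and 2 were lower in KDM4E-SCNT than in SCNT. Median-ratio scaling left 4 lower in IVF with none higher, and 3 lower in KDM4E-SCNT.

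In the SMN complex, which holds DDX20, 1 of 9 other members was higher in IVF and 2 were lower, or 1 and 5 under median-ratio scaling. GEMIN2 was higher (1.91 ± 0.30), and GEMIN7 (-4.02 ± 0.55) and GEMIN6 (-2.35 ± 0.34) were lower. KDM4E-SCNT was higher than SCNT for 1 and lower for 1, or 1 and 3 under median-ratio scaling, and GEMIN6 was 1.95 ± 0.39 above IVF (adjusted p = 0.00804). In the pathway around DDX58, 2 of 8 tested genes were higher in IVF and 1 was lower, or 1 and 4 under median-ratio scaling. IRF3, the transcription factor activated by RIG-I signalling, was lower (-3.12 ± 0.40), and the interferon-stimulated genes IFIT3 (2.17 ± 0.34) and ISG15 (1.49 ± 0.59) were higher. ISG15 was low, at 1.80, 2.40 and 4.70 FPKM in IVF and 0, 0 and 1.47 FPKM in SCNT. Its call was close to the threshold (limma adjusted p = 0.0446). KDM4E-SCNT was higher than SCNT for 1 of the 8, or for 1 with 1 lower under median-ratio scaling.

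**Figure D5:**
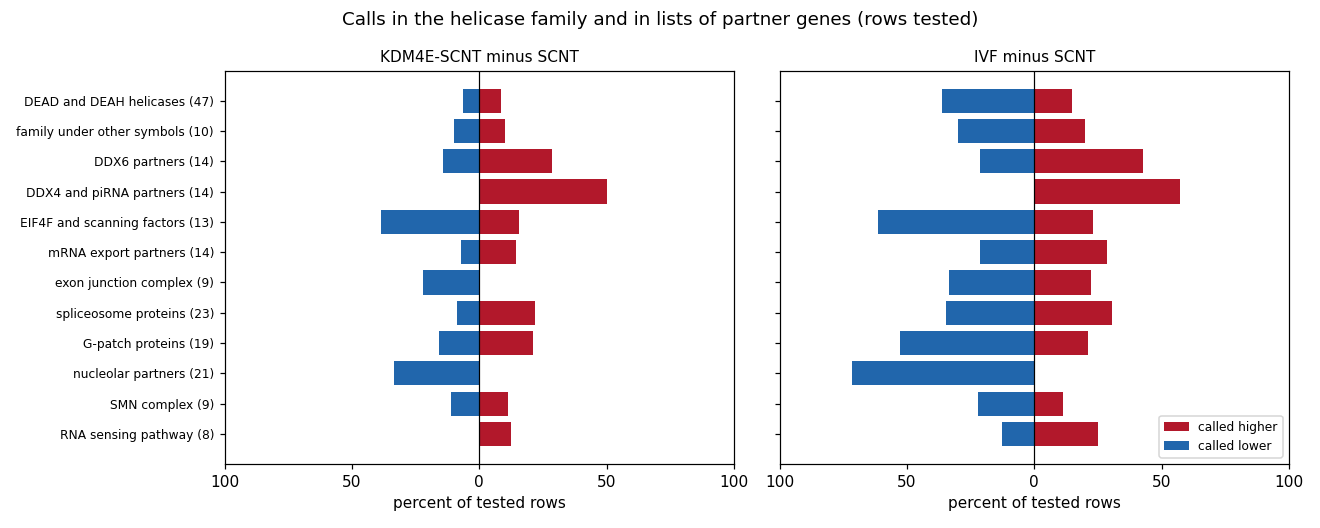
Percent of tested rows called higher (red, right) and lower (blue, left) in the helicase family and in the lists of partner genes, with the number of rows tested in brackets, for KDM4E-SCNT minus SCNT and IVF minus SCNT. In IVF minus SCNT the nucleolar list has 15 of 21 rows on the lower side, and the piRNA list has 8 of 14 on the higher side. Over all tested rows, 34.9% were called higher and 23.6% lower in IVF minus SCNT, and 21.6% and 11.0% in KDM4E-SCNT minus SCNT.

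Some helicases of the same superfamily carry other symbols. Of 10 tested, 2 were higher and 3 lower in IVF than in SCNT, or 1 and 5 under median-ratio scaling, and 1 was higher and 1 lower in KDM4E-SCNT than in SCNT, or 1 and 3. TDRD9, the same row already counted with the piRNA genes above, was higher in IVF. It had 1.98 and 3.23 FPKM in KDM4E-SCNT, 5.29, 4.70 and 4.92 FPKM in IVF, and 0.17, 0.16 and 0.19 FPKM in SCNT. SNRNP200 (the Brr2 helicase of the U5 particle, -2.19 ± 0.37) and SKIV2L2 (the MTR4 helicase of the nuclear exosome, -1.80 ± 0.34) were lower in IVF. Another 6 rows have no DDX or DHX symbol but are described in the files as such proteins, and 4 of them were tested. One is described as the Y-linked DEAD box protein 3 (LOC107131212, placed on chromosome X at 143364826 to 143375658). It had 0.06 and 0 FPKM in KDM4E-SCNT, 8.99, 11.1 and 2.64 FPKM in IVF, and 0.03, 0.29 and 0.03 FPKM in SCNT. All IVF libraries stood above the 5 nuclear transfer libraries (IVF minus SCNT 2.78 ± 0.45, adjusted p = 0.000201), and KDM4E-SCNT differed from IVF by -2.88 ± 0.50 (adjusted p = 0.0037). It resembles DDX3X in sequence, so reads of the pair could have been split, which was not tested. The X-linked DDX3X went the other way, with 28.8 to 78.2 FPKM in IVF and 186 to 240 FPKM in SCNT. Embryo sex in the pools was not examined. LOC540312, described as DDX26B, had 4.07 and 1.71 FPKM in KDM4E-SCNT, 0.29, 0.97 and 0.66 FPKM in IVF, and 4.45, 4.70 and 6.27 FPKM in SCNT, and it was lower in IVF than in SCNT (-1.91 ± 0.37, adjusted p = 0.000748). A row described as DEAD box protein 53 had 0.77 and 1.43 FPKM in KDM4E-SCNT, 7.05, 1.83 and 0.72 FPKM in IVF, and 0.24, 0.50 and 0.41 FPKM in SCNT, and IVF exceeded SCNT (1.30 ± 0.50, adjusted p = 0.0382). For both rows the IVF and SCNT libraries did not overlap, and neither was called in KDM4E-SCNT against SCNT or IVF. The row described as DDX10-like was called in no comparison, and those described as DHX33 and DDX26B-like reached at most 1.44 and 1.03 FPKM and were not tested.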

How the data were processed

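RNA from pools of eight-cell embryos was reverse transcribed, poly(A) tailed, amplified and sequenced on an Illumina HiSeq instrument, per the labels. Tools listed, without order, in the submitters' processing notes were RSEM 1.2.12, Bowtie2 2.2.5, StringTie 1.0.4, HISAT 0.1.6 and bcl2fastq 2.16, with build UMD3.1. The authors deposited FPKM per gene, with no counts, so absolute depth is unknown and no counting interval is given; steps in low values put the libraries at 0.933 to 1 of the depth of SCNT replicate 3. Amplification before fragmentation can distort levels of low genes.

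Log2(FPKM + 1) of all 8 libraries was fitted with limma 3.58.1 (R 4.3.3, trend and robust moderation) on 14839 rows at 1 FPKM or more in at least 2 libraries, leaving out 6419, with two-sided Benjamini-Hochberg adjusted p under 0.05 as a call. The code was tested on simulated data. Of 50 members, 26 were named: 11 listed members, those with the smallest p per role and comparison, and the most abundant; other members are mentioned to account for the family. Partner genes named are up to 3 per list with the smallest p. Members and lists were chosen with earlier results of these data known. Alternatives were pseudocounts 0.1 and 0.5, other filters, scalings and models, a replicate block, and leaving out each library.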

Additional observations from a re-analysis of the deposited data

How the results depend on the processing

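Between IVF and SCNT, 20 of the 24 member calls held under all 20 alternatives. DHX57 held under the 19 that tested it, since the stricter filter leaves it out, and DDX17, DHX36 and DHX58 each lost the call under at least 1. With one library left out, 6 to 8 members were higher and 15 to 18 lower. No KDM4E-SCNT call held under every alternative. Against SCNT, the 3 lower members became 5 with the stricter filter and with quantile normalization, 12 with median-ratio scaling, 8 with upper-quartile scaling and 1 with mitochondrially encoded genes removed, and ranged from 0 to 4 with one library left out; the 4 higher members ranged from 1 to 5. Against IVF, the 2 higher members became 4 with the stricter filter and 1 with no filter, with quantile normalization, median-ratio or upper-quartile scaling, 1 total per library, only the 2 groups compared, or limma without trend and robust moderation, and ranged from 0 to 3 with one library left out. The cause was not tested. Called values never changed sign among 1551 alternative values of named members, of which 1474 stayed on the same side of the threshold, 42 lost it and 35 gained it. Other filters, other moderation, fitting only the groups compared, and leaving out a library of the third group keep the estimate itself unchanged. The sign could not change under those alternatives. Of the uncalled member differences, 33 changed sign under at least 1 alternative. Whether replicate numbers pair the samples is not settled by these data. Same-number IVF and SCNT libraries correlated weakly, at 0.060, 0.093 and 0.028. Same-number KDM4E-SCNT libraries correlated at 0.032 and 0.068 with IVF and at 0.006 and 0.123 with SCNT. Not every library correlated best with its own number, as IVF replicate 3 was closer to SCNT replicate 1 (0.070). Deviations from the means of so few libraries cannot exclude a pairing. With a replicate block, 7 members were higher and 17 lower in IVF minus SCNT, 5 and 2 in KDM4E-SCNT minus SCNT, and 3 and 0 in KDM4E-SCNT minus IVF. FPKM without counts sets no floor on low members such as DHX30.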
